A study of Homo sapiens with 13 samples.

Results

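The NR4A orphan nuclear receptors are NR4A1, NR4A2 and NR4A3, and they were followed here with every probe set whose platform gene symbol is one of these names. The array held 9 such probe sets, 3 for each gene, among 22277 probe sets, and the 3 genes were counted among 11963 genes with a probe set of 1 symbol. In RefSeq (GRCh38.p14) NR4A1 lies at chr12:52022832-52059503, NR4A2 at chr2:156324437-156332721 and NR4A3 at chr9:99821885-99866891. NR4A receptors are transcription factors whose ligand pocket is filled by bulky side chains, so their activity is set mainly by how much protein is made. Their genes are classical immediate early genes: growth factors, serum, cyclic AMP and calcium signals raise their transcription through factors such as CREB, MEF2 and SRF, without new protein synthesis. NR4A1 (also called Nur77) and NR4A2 (Nurr1) bind DNA alone or with the retinoid X receptors RXRA or RXRG, whereas NR4A3 (NOR1) is not known to pair with them.

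The cells were MCF10A, a line of human mammary epithelial cells that became immortal spontaneously and does not form tumours. All cells, the unstimulated ones included, had been deprived of serum for 24 h. They were then left unstimulated (1 array) or stimulated with EGF or with serum for 20, 40, 60, 120, 240 or 480 min (1 array for each stimulus and time, 13 arrays in all). In the labels "serum" is a name for a mixture of insulin, cholera toxin, hydrocortisone and horse serum, so the serum arm may have carried all of these agents; the labels do not give the dose of either stimulus. Arrays of 20, 40 and 60 min are called early below and those of 120, 240 and 480 min late.

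No condition was repeated, and the spread behind every test is that between times and between stimuli, not between cultures. The deposited values are MAS5 signals on a linear scale, scaled to a trimmed mean of 150.04 to 150.05 on every array. A signal under 20 is called dim here. The serum array of 20 min stood apart, with 33.3% of its probe sets dim, while the other arrays had 36.8% to 40.0%. The title of the EGF array of 20 min gives 20 min and its description 40 min; the title was used. All 8 listed mammary epithelial markers on the array, KRT5, KRT14 and KRT18 among them, passed the filter on low values. Their mean signals were 1770 (CDH1) to 5897 (KRT14). Of the hormone receptor positive luminal markers, GATA3 passed at 171. The others were dim: the receptors ESR1 and PGR at 14.5 and 4.15, FOXA1 at 17.3, KRT19 at 1.36 and TFF1 at 14.7. Of 9 markers of other cell types, CD14 (mean signal 170) and COL1A1 (43.1) passed the filter. CD14 was lower late than early after serum by 1.05 ± 0.21 on the log2 scale (SE; limma, adjusted p = 0.048), and its part in the results below was not tested.

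Of the 9 NR4A probe sets, 5 were dim on average, among them all 3 of NR4A3. A filter at the 40th percentile of mean log2 values kept 13329 of 22215 probe sets other than controls, and with them 4 NR4A probe sets: NR4A1 202340_x_at and the 3 of NR4A2. NR4A2 204622_x_at passed only through the early serum arrays, since without them its mean log2 value was 4.66 against a limit of 4.68. Its values are therefore given below as a description with no test, and counts of tested NR4A probe sets are over the other 3. In Affymetrix naming, the ending x_at marks probes that can match other transcripts too, and s_at marks probes shared by several transcripts, so NR4A1 202340_x_at and NR4A2 204622_x_at may carry signal from elsewhere. Signals are compared below only within a probe set.

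**Figure D1:**
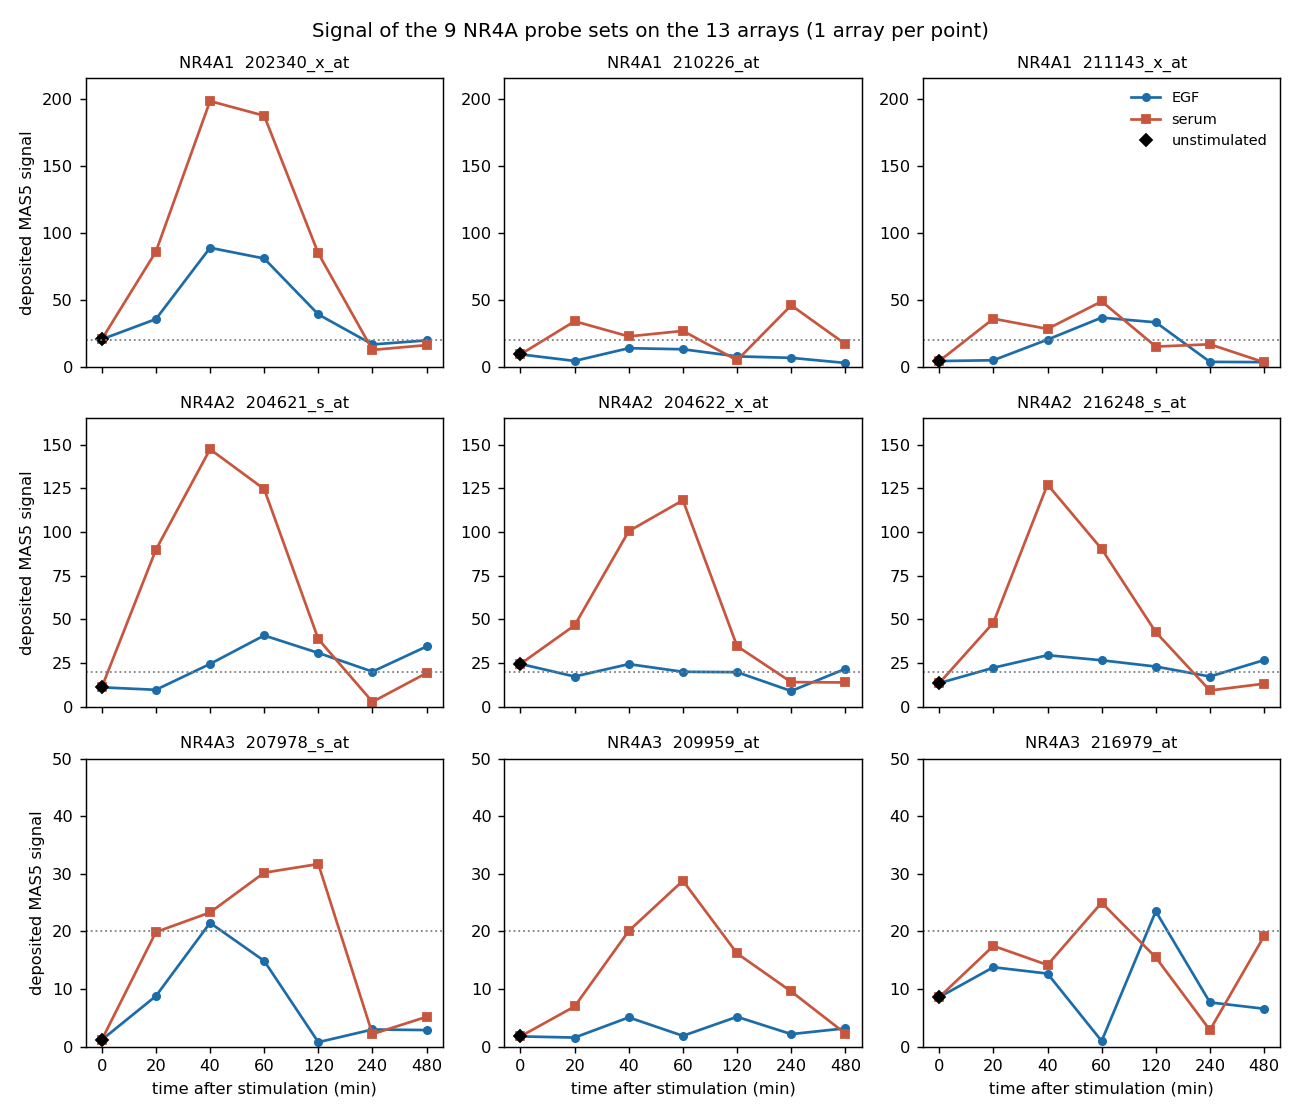
Deposited MAS5 signal (linear, y axis) of each NR4A probe set against time after stimulation (min, evenly spaced steps), with 1 array per point, EGF in blue, serum in red and the shared unstimulated array as a black diamond. The dotted line marks a signal of 20. NR4A1 202340_x_at peaked at 198.1 after serum and 88.7 after EGF, and the NR4A2 probe sets peaked at 118.2 to 147.4 after serum while EGF reached 24.4 to 40.8.

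NR4A1 was above the unstimulated array from 20 to 120 min after either stimulus, most at 40 and 60 min, and near it from 240 min, though its mean response did not pass the test at any time. In these whole-culture samples, a change in the share of cells that express a gene and a change of RNA per cell cannot be told apart. Its probe set 202340_x_at had a signal of 20.4 in unstimulated cells. After EGF it read 35.5, 88.7, 80.7, 39.0, 16.6 and 19.6 at 20, 40, 60, 120, 240 and 480 min. After serum it read 85.8, 198.1, 187.2, 84.5, 12.5 and 16.1 at the same times. Both courses therefore had their highest array at 40 min, a nearly equal one at 60 min, and a 120 min array on the way down. On the scale of log2(signal + 6) after quantile normalisation, used for every difference below, the array at 40 min stood 3.77-fold above the unstimulated one after EGF and 8.23-fold after serum. Such folds understate changes of low signals, because of the added 6.

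The mean of both stimuli at 40 min stood 2.48 ± 0.52 (SE) above the unstimulated array for NR4A1, and at 60 min 2.37 ± 0.52, on the log2 scale. Neither passed the test over 13329 probe sets (limma, adjusted p = 0.313 and 0.283), where the comparison at 40 min called 0.03% of probe sets and that at 60 min 0.0525%. At 20 min the difference was 1.24 ± 0.52 (limma, adjusted p = 0.785, 0.0075% called) and at 120 min 1.35 ± 0.52 (0.47, 0.0075% called). At 240 and 480 min it was -0.22 and 0.00 (limma, adjusted p = 0.936 and 1), with 0% of probe sets called at either time. The estimate at 40 min ranked 10 of 13329 from the highest, and that at 60 min ranked 15. All these responses rest on the same single unstimulated array.

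The arrays of NR4A1 202340_x_at formed 4 steps when ordered by level, counting as a step any gap above 0.34, the moderated residual SD of the model of EGF minus serum by phase in the fit with no filter. That SD reflects how EGF minus serum varied between the times of a phase, not the error of a single array. The steps are therefore a description. Serum at 40 and 60 min formed the highest step. EGF at 40 and 60 min stood with serum at 20 and 120 min in the next, and EGF at 20 and 120 min in the one after. The lowest step held the unstimulated array and all arrays of 240 and 480 min, with no gap between neighbours above 0.34.

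The other NR4A1 probe sets were dim and did not all trace this course. NR4A1 211143_x_at (mean 19.5) read 4.2 unstimulated, 4.8, 20.2, 36.6, 33.1, 3.6 and 3.4 after EGF, and 35.8, 28.2, 48.7, 15, 16.7 and 3.3 after serum. It was highest at 60 min after both stimuli and correlated with 202340_x_at at r = 0.76 over 13 arrays. NR4A1 210226_at (mean 16.0) stayed between 2.8 and 13.8 after EGF, and after serum read 33.9, 22.6, 26.7, 4.8, 45.8 and 16.9. Its highest array was serum at 240 min, where 202340_x_at was at its lowest, and the correlation between them was 0.23.

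NR4A2 was high in the first hour after serum and low throughout after EGF, in each of its 3 probe sets. NR4A2 204621_s_at stands for the gene by its highest mean log2 value, which rests on the early serum arrays. Without those arrays 216248_s_at had the higher mean, at 4.77 against 4.72. NR4A2 204621_s_at read 11.1 unstimulated and 9.7, 24.5, 40.8, 30.8, 20.1 and 34.5 at the 6 times after EGF. After serum it read 89.9, 147.4, 124.6, 38.7, 2.8 and 19.3. All 3 early serum arrays lay above all 10 others, and the share of all tested probe sets that do so was not counted. In this probe set the highest serum array stood 9.36-fold above the unstimulated one, and the highest EGF array 2.78-fold, at 40 and 60 min.

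NR4A2 204622_x_at read 24.5 unstimulated, 17.3, 24.4, 20.0, 19.8, 9.0 and 21.7 after EGF, and 46.6, 100.5, 118.2, 34.7, 14.1 and 13.9 after serum. No EGF array of this probe set had a deposited signal above the unstimulated one, and after normalisation the highest was 1.05-fold above it. NR4A2 216248_s_at read 13.5 unstimulated, 22.3, 29.5, 26.6, 23.0, 17.3 and 26.7 after EGF, and 48.1, 127.2, 90.3, 42.7, 9.3 and 13.2 after serum. Here every EGF array was above the unstimulated one, by at most 1.87-fold. The probe sets thus differ on whether EGF moved NR4A2 at all, and are alike in the height of the early serum arrays. The correlations among them were 0.83 to 0.92 over 13 arrays, among which the 3 early serum arrays stand out.

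Ordered by level in the same way, with a moderated residual SD of 0.47 from the same fit, NR4A2 204621_s_at had 4 gaps. Serum at 40 and 60 min stood highest, then serum at 20 min alone, and serum at 240 min stood alone at the bottom. Between them, EGF at 40 to 480 min and serum at 120 and 480 min had no gap between neighbours above 0.47, and the unstimulated array stood below these beside EGF at 20 min. NR4A2 204622_x_at and 216248_s_at had 2 such gaps each.

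As means of both stimuli, the NR4A2 responses did not pass the test at any time. At 40 min the difference from the unstimulated array was 2.03 ± 1.18 for NR4A2 204621_s_at (limma, adjusted p = 0.759) and 1.87 ± 0.80 for 216248_s_at (0.636), beside 0.99 ± 0.72 for 204622_x_at. This model takes the EGF and serum courses as parallel, and its SEs were larger here than for NR4A1. Counted per array, at least 2-fold above unstimulated after serum were 3 of the 3 tested NR4A probe sets at 20 min (1.74% of all tested), 40 min (1.93%), 60 min (2.36%) and 120 min (2.46%). The same count after EGF was 0 at 20 min (1.22%), 1 at 40 min (1.51%), 2 at 60 min (1.67%) and 1 at 120 min (2.08%). At 240 min no tested NR4A probe set was 2-fold above unstimulated after either stimulus (1.5% after EGF and 2.47% after serum). At 480 min, 204621_s_at was, after EGF (1.73%), and none was after serum (2.07%).

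NR4A3 was near the floor of the array in most conditions, and none of its probe sets passed the filter. NR4A3 207978_s_at (mean 12.7) read 1.2 unstimulated, 8.8, 21.5, 14.9, 0.8, 3.0 and 2.9 after EGF, and 19.9, 23.3, 30.2, 31.7, 2.2 and 5.2 after serum. Its early arrays were all above the unstimulated one, and its serum array of 120 min was the highest. NR4A3 209959_at (mean 8.08) stayed between 1.6 and 5.2 after EGF and read 7.0, 20.1, 28.8, 16.2, 9.6 and 2.3 after serum, against 1.8 unstimulated. NR4A3 216979_at (mean 12.9) ran from 1.0 to 23.5 after EGF and from 2.9 to 25.0 after serum with no common course. With the filter left out, 207978_s_at stood 2.0 ± 0.70 above the unstimulated array at 40 min as the mean of both stimuli (limma, adjusted p = 0.743).

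The promoter of NR4A3 is shown because cyclic AMP and CREB are known inducers of this family; it was chosen after its matches to their half-site were seen, so their number is a description. The RefSeq sequence (GRCh38.p14) of the 250 bases before the NR4A3 start, chr9:99821635-99821884 on the plus strand, is given 5′ to 3′ with matches of TGACG or its reverse complement CGTCA, the half-site of the cyclic AMP response element, in capitals.
NR4A3: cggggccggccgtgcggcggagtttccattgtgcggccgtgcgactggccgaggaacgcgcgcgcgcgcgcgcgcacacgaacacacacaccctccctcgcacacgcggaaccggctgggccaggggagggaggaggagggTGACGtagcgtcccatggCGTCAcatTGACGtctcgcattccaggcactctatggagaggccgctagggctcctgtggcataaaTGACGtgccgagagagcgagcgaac
It holds 4 matches, beginning 109, 91, 83 and 25 bases before the start, the second of them on the minus strand. At least 1 match occurs in 21.2% of 35116 RefSeq promoter windows of this length, and 4 or more in 0.236%. As this window was chosen for its matches, these shares carry no test. The NR4A1 windows, chr12:52022582-52022831 and chr12:52037465-52037714 on the plus strand, hold 0. The full element TGACGTCA (in 1.65% of windows), the NR4A response element AAAGGTCA (1.05%) and the CArG box bound by SRF (1.16%) were searched on both strands too and had 0 matches in the NR4A1 and NR4A3 windows. A match is a description of letters, and its absence says only that they are not in this window.

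In the first hour, serum arrays exceeded EGF arrays of the same time in each of the 3 tested NR4A probe sets. The share of all probe sets with this pattern was not counted. NR4A2 204622_x_at showed it too, but passed the filter only through its early serum arrays. For NR4A1 202340_x_at, EGF minus serum was -1.06, -1.13 and -1.19 on the log2 scale at 20, 40 and 60 min. For NR4A2 204621_s_at it was -2.50, -2.39 and -1.50. For NR4A2 204622_x_at it was -0.97, -1.86 and -2.25, and for 216248_s_at -0.75, -1.96 and -1.55. The gap in NR4A1 was thus nearly constant over the first hour. In NR4A2 204621_s_at and 216248_s_at it was wider than in NR4A1 at 40 and 60 min, and at 20 min in 204621_s_at alone of these. This contrast between genes was not tested.

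The early mean of EGF minus serum was -1.12 ± 0.26 for NR4A1 (limma on pairs of equal time, n = 3 pairs, adjusted p = 0.168) and -2.13 ± 0.36 for NR4A2 204621_s_at (0.153). It was -1.42 ± 0.36 for 216248_s_at (0.185), beside -1.69 ± 0.31 for 204622_x_at. None of the 3 tested passed the adjusted threshold, which 0% of all 13329 probe sets passed in this comparison. With no adjustment all 3 had p under 0.05 in limma, as did 2004 probe sets, or 15% of all tested. With a variance trend and robust variances in limma, all 3 passed, at adjusted p = 0.0365, 0.00646 and 0.0481 in the same order, and that setting called 332 probe sets, or 2.49%, where the main one called 0. In 2 of the 3, both of NR4A2, the early EGF arrays lay below all early serum arrays, as did 11.1% of all tested probe sets. NR4A1 was the exception, as EGF at 40 min slightly exceeded serum at 20 min.

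At single early times the number of tested NR4A probe sets with EGF at least 2-fold below serum was 2 at 20 min (1.88% of all tested), 3 at 40 min (2.02%) and 3 at 60 min (1.97%). At 120 min it was 1 (3.03%), NR4A1, with -1.04 on the log2 scale. At 240 min EGF minus serum was 0.30 for NR4A1, 0.64 for NR4A2 216248_s_at and -0.42 for 204622_x_at. It was 1.63 for NR4A2 204621_s_at, where the serum signal was 2.8 and close to the floor; this was the 1 tested NR4A probe set with EGF at least 2-fold above serum at that time (1.91% of all tested). At 480 min it was 0.30 for NR4A1 and 0.70, 0.58 and 0.86 for NR4A2 204621_s_at, 204622_x_at and 216248_s_at, so serum no longer exceeded EGF in any of them. Over the late arrays it was -0.14 ± 0.26 for NR4A1 (limma, adjusted p = 0.801, 0.698% called) and 0.67 ± 0.36 for 204621_s_at (0.373). In 0 of the 3 tested probe sets did all late EGF arrays lie above all late serum arrays (12% of all tested), and in 0 below them (10.2%). Over all 6 times the mean difference was -0.63 for NR4A1 (limma, adjusted p = 0.209), -0.73 for 204621_s_at (0.492) and -0.59 for 216248_s_at (0.407), beside -0.94 for 204622_x_at, and 0.06% of probe sets were called.

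**Figure D2:**
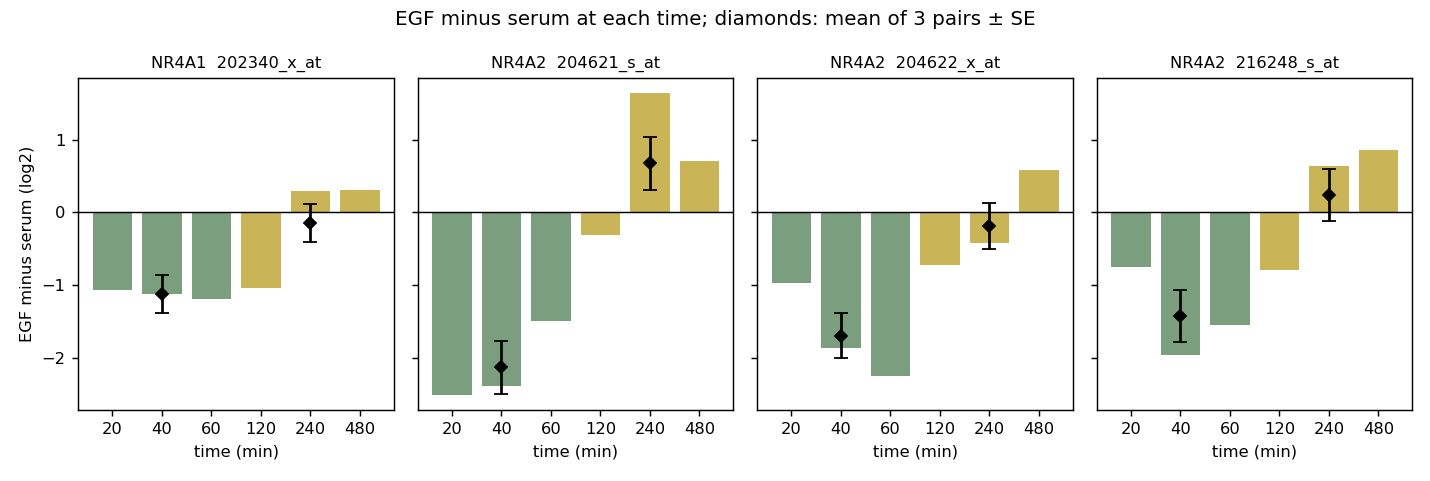
EGF minus serum on the log2 scale (y axis) at each time (min, x axis) for the 4 NR4A probe sets that passed the filter, with early times in green and late ones in yellow. Black diamonds with bars are the mean of the 3 early or 3 late pairs ± SE. Every early bar is below 0, with means from -2.13 to -1.12, and the late means lie between -0.19 and 0.67.

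Between early and late arrays, the estimate after serum was negative in the 3 tested NR4A probe sets. A negative sign alone is common, as the median over all tested probe sets was 0.0036. The estimate was negative too in 204622_x_at, whose early serum arrays alone carried it past the filter. After EGF the estimate was negative by more than its SE in NR4A1 alone of these. Late minus early after serum was -2.14 ± 0.58 for NR4A1 (limma, adjusted p = 0.0929) and -2.49 ± 0.54 for NR4A2 204621_s_at (0.055). It was -1.79 ± 0.43 for 216248_s_at (0.0697), beside -1.72 ± 0.39 for 204622_x_at. The adjusted p of the 3 tested stood above the threshold of 0.05, which 1.01% of probe sets passed. With no adjustment all 3 had p under 0.05 in limma, as did 19.5% of all tested. After EGF it was -1.16 ± 0.58 for NR4A1 (limma, adjusted p = 0.395, 0.105% called), 0.32 ± 0.54 for 204621_s_at (0.83) and -0.13 ± 0.43 for 216248_s_at (0.919), beside -0.21 ± 0.39 for 204622_x_at. With the filter left out, the dim NR4A3 207978_s_at stood at -1.28 ± 0.49 after EGF (limma, adjusted p = 0.446, 0.0405% called). NR4A3 209959_at and 216979_at stood at 0.13 ± 0.44 (0.95) and 0.39 ± 0.50 (0.839).

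These calls changed with the serum array of 120 min, which is grouped with the late arrays but was higher than those of 240 and 480 min in each of these probe sets. Leaving out the highest late serum array makes this difference larger by construction. Without it, late minus early after serum passed the test in limma for all 3: -2.85 for NR4A1 (adjusted p = 0.0239), -3.01 for NR4A2 204621_s_at (0.0269) and -2.28 for 216248_s_at (0.0226). With another single array left out, adjusted p in limma reached 0.246, 0.165 and 0.207 in the same order. The setting without the serum array of 120 min also called more probe sets, 258 of 13329 or 1.94%, against 1.01% with that array kept. With it kept, both NR4A2 probe sets passed too on the scale of log2(signal + 24) (limma, adjusted p = 0.0204 and 0.0488) or with a variance trend (0.0141 and 0.0219), and NR4A1 did not pass in either. Over both stimuli, NR4A1 was lower late by 1.65 ± 0.41 (limma, adjusted p = 0.0556, 3.2% called, or 22.7% without adjustment), and without the serum array of 120 min the estimate was -2.01 (0.0137), where 4.5% were called. In 1 of the 3, 204621_s_at, all late serum arrays lay below all early ones, as in 12.7% of all tested; after EGF this held for 0 of 3, against 10%.

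**Figure D3:**
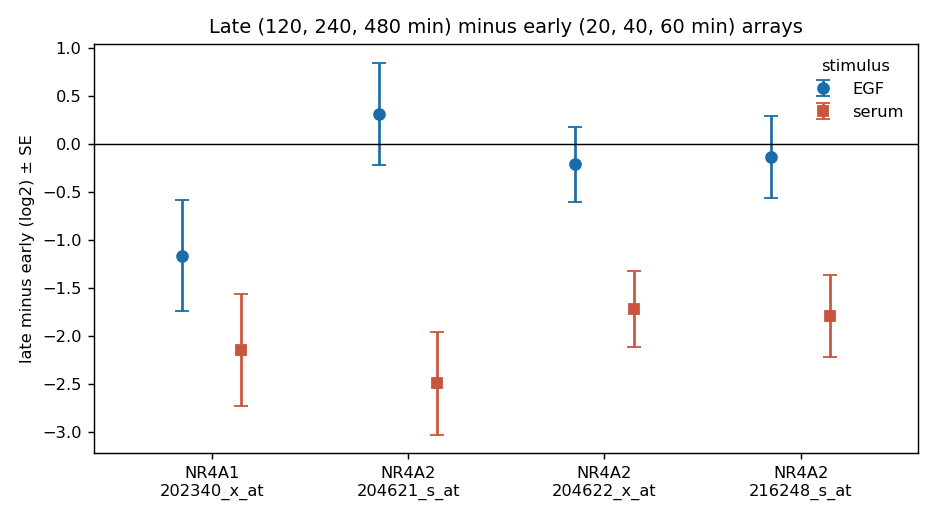
Late minus early arrays on the log2 scale (y axis, estimate ± SE of the limma fit) for the 4 NR4A probe sets that passed the filter, after EGF (blue circles, 3 arrays against 3) and after serum (red squares, 3 against 3). Serum estimates lie between -2.49 and -1.72 and EGF estimates between -1.16 and 0.32.

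The difference between the stimuli was tested directly as the change of EGF minus serum from early to late arrays. It was 2.80 ± 0.52 for NR4A2 204621_s_at (limma, adjusted p = 0.236) and 1.66 ± 0.50 for 216248_s_at (0.371). For NR4A1 it was 0.98 ± 0.37 (0.438), and for 204622_x_at 1.51 ± 0.44. None passed, and 0.015% of probe sets did; without adjustment all 3 had p under 0.05 in limma, as did 10.6% of all tested. Over the 13 comparisons and 3 probe sets, 0 of 39 tests passed at the adjusted threshold in limma and 18 at an unadjusted p under 0.05, a level that 6.32% to 22.7% of all tested probe sets reached in the single comparisons. These tests depend on each other, since the comparisons share arrays and NR4A2 has more than 1 tested probe set. The 18 are therefore not separate results.

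NR4A1 202340_x_at correlated with the NR4A2 probe sets at 0.84 to 0.91 over 13 arrays. With the NR4A3 probe sets, all dim, it correlated at 0.89 (207978_s_at), 0.68 (209959_at) and 0.33 (216979_at). The NR4A3 probe sets correlated with one another at 0.24 to 0.63. These values are descriptions over arrays that share a time course, and the dim probe sets carry mostly low signals.

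**Figure D4:**
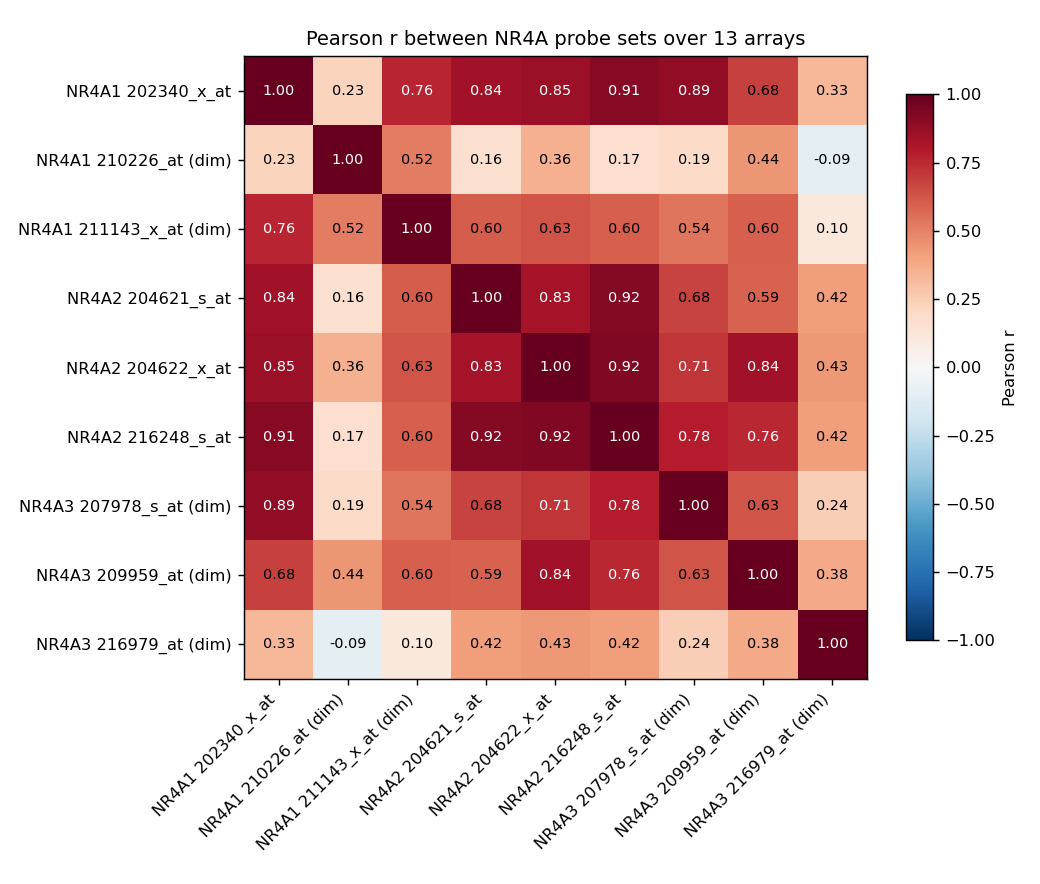
Pearson r (colour, printed in each cell) between the log2 values of the 9 NR4A probe sets over the 13 arrays, with dim probe sets marked. NR4A1 202340_x_at, the NR4A2 probe sets and NR4A3 207978_s_at form a block at 0.68 to 0.92, and NR4A1 210226_at and NR4A3 216979_at stand outside it.

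Among 7730 other genes that passed the filter, those most like NR4A1 over 13 arrays were FOSB (r = 0.942), ATF3 (0.936), JUN (0.933), MEIS1 (0.923) and CCNL1 (0.921). FOSB and JUN are subunits of the AP-1 transcription factor, ATF3 is a stress-induced bZIP factor, MEIS1 a homeodomain factor and CCNL1 a cyclin linked to splicing. Of these 5, 4 remained with Spearman's correlation and 4 with the unstimulated array left out. Those most like NR4A2 204621_s_at were GDE1 (0.895), ATF3 (0.842), FOSB (0.840), WEE1 (0.840) and TCF7L2 (0.839), of which 1 remained with Spearman's correlation and 2 without the unstimulated array. ATF3 was also first for both other NR4A2 probe sets, at 0.929 and 0.924, and NR4A1 second for 216248_s_at at 0.912. For NR4A3 the rule took 216979_at, whose nearest genes were FRS3, IFNAR2, PTPRA, MBD5 and IL1R1 at 0.865 to 0.780. For 207978_s_at, looked at after its values were seen, they were PLK2, TKT, ZFP36, NR4A1 and SLC37A4 at 0.914 to 0.884.

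ATF3 and FOSB, each among the nearest to both genes, were chosen for likeness over these same arrays, so their signals illustrate it and carry no test. ATF3 read 21.7 unstimulated, 27.7, 74.8 and 48.9 at 20, 40 and 60 min after EGF, and 177.5, 449.8 and 286.4 after serum. FOSB read 2.6 unstimulated, 18.1, 35.3 and 51.4 after EGF, and 172.9, 246.8 and 173.9 after serum. In both genes every early serum array was above every early EGF array.

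The immediate early transcription factors as a list had 18 tested genes of 19 on the array. At 40 min 2 rose against the unstimulated array, EGR3 by 3.62 ± 0.31 and EGR1 by 2.41 ± 0.22 (limma, adjusted p = 0.0189 for each), and 0 fell. The median of the list was 0.97 on the log2 scale, beside -0.01 over all 7731 genes. FOS, the partner of JUN in AP-1, stood at 4.27 ± 1.14 without passing (0.396). Over both stimuli 5 of the 18 fell from early to late arrays and 0 rose, among them FOS, which fell by 2.58 ± 0.58, FOSB, which fell by 2.58 ± 0.51, EGR1, which fell by 1.97 ± 0.33, and ATF3, which fell by 1.88 ± 0.39 (limma, adjusted p = 0.0429, 0.0313, 0.0206 and 0.0336), where 3.2% of all probe sets were called. From early to late after serum, 2 of the 18 were called: FOSB fell by 3.81 ± 0.72 and ATF3 fell by 2.93 ± 0.55 (limma, adjusted p = 0.0418 for each), where 1.01% of all probe sets were called. For early EGF minus serum 0 of 18 passed, and the list's median was -0.27 beside -0.01 over all genes. The largest differences there were those of ATF3 (-2.45 ± 0.28, limma, adjusted p = 0.093) and FOSB (-2.39 ± 0.25, 0.0786), both chosen above for likeness to NR4A1 and NR4A2. Of the 18 estimates 6 were positive. EGR1 stood at 0.48 ± 0.15 (limma, adjusted p = 0.242) and FOS at -0.43 ± 0.69 (0.811) in this comparison, where NR4A1 stood at -1.12 and NR4A2 at -2.13. Whether the genes differ from each other in this was not tested.

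Of the cyclic AMP and CREB targets, 11 of 16 on the array were tested. PTGS2, the inducible prostaglandin synthase, rose by 3.10 ± 0.33 at 40 min (limma, adjusted p = 0.0477), the only 1 of 11 to pass there, and the list's median was 0.70. For early EGF minus serum 0 of 11 passed, with a median of -0.56, and the largest differences were those of RGS2, an inhibitor of Gq signalling (-3.21 ± 0.46, adjusted p = 0.14), and DUSP1, a MAP kinase phosphatase (-1.55 ± 0.15, 0.0786). Over all 6 times RGS2 was lower after EGF by 3.16 ± 0.30 (limma, adjusted p = 0.0181) and DUSP1 by 1.91 ± 0.16 (0.0104).

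For the factors and kinases that regulate NR4A transcription, 21 of 25 on the array were tested, and none passed in any of the 13 comparisons in limma. Their median was -0.08 at 40 min and 0.04 for early EGF minus serum. The largest differences at 40 min were those of SRF (0.70 ± 0.35, limma, adjusted p = 0.711) and MEF2D (0.67 ± 0.89, 0.928). For early EGF minus serum they were those of the ETS factor ELK3 (-0.82 ± 0.15, 0.153) and of MEF2D (0.58 ± 0.57, 0.673).

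Of the partners of NR4A receptors and their coactivators and corepressors, 14 of 15 on the array were tested and none passed in any of the 13 comparisons in limma. RXRA had a mean signal of 236 (range 159.7 to 318.4) and RXRB 94.7 (68.7 to 115.5), while RXRG was dim at 6.86. At 40 min RXRA stood at -0.07 ± 0.34 (limma, adjusted p = 0.988). The largest difference at 40 min was that of BCL2 (0.77 ± 0.52, 0.8), a survival protein that NR4A1 binds. The largest early EGF minus serum differences were those of the acetyltransferase CREBBP (-0.45 ± 0.13, 0.221) and the corepressor RCOR1 (-0.44 ± 0.12, 0.207).

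Of 36 other nuclear receptors on the array 14 were tested, and none passed in any of the 13 comparisons in limma. Their median at 40 min was -0.07, where NR4A1 stood at 2.48. The largest differences there were those of the retinoic acid receptor RARG (0.61 ± 0.45, limma, adjusted p = 0.825) and the circadian repressor NR1D2 (-0.42 ± 0.31, 0.822). For early EGF minus serum they were those of RARG (-0.62 ± 0.29, 0.382) and the thyroid hormone receptor THRA (0.36 ± 0.33, 0.66). The glucocorticoid receptor NR3C1, whose ligand hydrocortisone is in the serum mixture, stood at -0.06 ± 0.19 at 40 min (0.983) and 0.12 ± 0.13 for early EGF minus serum (0.694).

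Genes reported as NR4A targets in other tissues lay mostly below the filter: of 16 on the array only E2F1 and FOXP3 passed it, and neither was called in any of the 13 comparisons in limma. The steroidogenic and dopaminergic targets were dim, with mean signals of 2.30 for TH, the rate-limiting enzyme of dopamine synthesis, and 5.36 for CYP17A1, an enzyme of steroid synthesis. The cell cycle factor E2F1 stood at -0.19 ± 0.46 at 40 min (limma, adjusted p = 0.974) and 0.85 ± 0.31 for early EGF minus serum (0.282). FOXP3, a factor of regulatory T cells, stood at -1.02 ± 0.42 late minus early after serum (0.218).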

How the data were processed

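The deposited table gives an intensity for each probe set on each array, which the authors had summarised as a linear MAS5 signal; MAS5 is named in the submitters' processing notes, and its version is not given in the sources used here. Probe sets were named from the platform annotation: of 22215 other than 62 controls, 19064 had 1 symbol, 1043 several and 2108 none. Signals were transformed as log2(signal + 6) and, since array medians differed by 0.298 (limit 0.2), quantile normalised. Probe sets under the 40th percentile of mean log2 values were left out. limma 3.58.1 in R 4.3.3 (lmFit, eBayes) was fitted over all 13329, with Benjamini-Hochberg adjustment within each comparison and a threshold of 0.05. Responses used time and stimulus as additive terms, EGF minus serum used time as a block, and late minus early used stimulus and phase. The fits were tested on simulated data. Of several probe sets, the one of highest mean stood for its gene. Named genes were, per member, the 5 with the highest Pearson r; per list, up to 4 past the threshold or otherwise the 2 with the largest difference; and FOS and EGR1. The RXR genes, NR3C1, TH, CYP17A1 and the cell markers were named for their roles. Values of all NR4A probe sets were given. The members, lists and tests were chosen with earlier results of these data known. Promoters came from RefSeq tables (GRCh38.p14), in which 2 of the 3 genes had a window, and all 3 genes matched the RefSeq gene table. Figures were drawn with matplotlib 3.10.9 in Python 3.11.15. Alternatives were other offsets, no normalisation, other filters, 1 or averaged probe sets per gene, another variance model and arrays left out.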

Additional observations from a re-analysis of the deposited data

How the results depend on the processing

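Over 22 alternative settings, 1016 values were computed for the 4 NR4A probe sets that passed the filter. NR4A2 204622_x_at, which did so only through the early serum arrays, was included. Of these values 967 kept their direction and their side of the threshold, 27 came to pass it and 22 changed sign. There was no call to lose. Among the 27, those of 204622_x_at are a description with no test: 1 for early EGF minus serum, 3 for late minus early and 4 for late minus early after serum. Arrays could not be paired by replicate, because each condition had 1 array. EGF and serum were paired by time in the main model. NR4A1 late minus early passed with log2(signal + 24) at -1.24, without quantile normalisation at -1.72, and with a variance trend or with time as 6 levels at -1.65, and ran from -2.01 to -1.44 with single arrays left out. NR4A1 late minus early after serum ran from -2.85 to -1.73 with single arrays left out. NR4A2 204621_s_at late minus early after serum passed with log2(signal + 24) at -1.74, with the gene's probe sets averaged at -2.00 and with the variance trend at -2.49, and ran from -3.01 to -1.84 with single arrays left out. Its early EGF minus serum passed with log2(signal + 24) at -1.58 and with the variance trend at -2.13, and its change of EGF minus serum from early to late passed with that trend at 2.80. NR4A1 early EGF minus serum passed with that trend at -1.12.

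The 22 changes of sign were in differences whose main estimates lay between -0.22 and 0.47. For NR4A1 the response at 240 min was 0.42 with averaged probe sets and -0.78 to 0.34 with single arrays left out, and at 480 min it was -0.0021 with no offset, -0.15 without quantile normalisation, -0.012 with averaged probe sets and -0.56 to 0.56 with single arrays left out. Late EGF minus serum of NR4A1 was -0.37 to 0.30 with single arrays left out. For NR4A2 204621_s_at, late minus early after EGF was -0.009 with averaged probe sets, -0.095 without both arrays of 20 min and -0.095 to 0.68 with single arrays left out, and the response at 240 min was 0.012 with log2(signal + 24) and -1.51 to 1.32 with single arrays left out. With single arrays left out, 204622_x_at gave -0.57 to 0.077 for late EGF minus serum, -0.41 to 0.056 for late minus early after EGF and -1.13 to 0.69 for the response at 480 min. In the same way 216248_s_at gave -0.076 to 0.75 for late EGF minus serum, -0.68 to 0.81 for the response at 240 min (-0.046 without quantile normalisation) and -0.40 to 1.35 at 480 min. The cause was not tested.

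Counts of probe sets called moved more than the members' values: late minus early called 427, and 33 to 973 under other settings or 31 to 600 with single arrays left out, and late minus early after serum called 134, with 14 to 603 and 6 to 258. EGF minus serum called 0 early, with 0 to 332 under other settings, and 93 late, with 1 to 851. With 1 array per condition, these tests cannot separate a condition from the culture or array that carried it. NR4A3 and the dim NR4A1 probe sets lie where signal over background limits any reading.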
